A study of Mus musculus with 2 samples.

Results

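The genes described here are 9 costimulatory receptors of the tumour necrosis factor (TNF) receptor superfamily, Tnfrsf1a, Tnfrsf1b, Tnfrsf4, Tnfrsf8, Tnfrsf9, Tnfrsf14, Tnfrsf18, Tnfrsf25 and Cd27. They were taken by gene name from the 34745 rows of the deposited tables, where each had 1 row. Their transcripts were counted by RNA sequencing of regulatory T (Treg) cells, CD4 T cells defined by the transcription factor Foxp3 that keep other immune cells in check. The knockout library came from poh1fl/fl Foxp3Cre+ mice and the wild-type library from poh1+/+ Foxp3Cre+ mice. Both groups were C57BL/6 mice of 2 weeks of age that carried Foxp3Cre, and the sorted cells were splenic CD4+ cells positive for the YFP reporter of Foxp3. Foxp3Cre acts in cells that have switched on Foxp3. The sources used here do not say whether mice were pooled. There was 1 library per genotype, so no difference has a replicate check. Each range in parentheses is a 95% interval for counting error alone.

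Receptors of this superfamily are single-pass membrane proteins that bind trimeric ligands of the TNF family. Most of the receptors described here recruit TRAF adaptor proteins to a short cytoplasmic tail, and through ubiquitin chains these adaptors switch on NF-kB and JNK signalling. Tnfrsf1a and Tnfrsf25 also carry a death domain. In Treg cells several of the receptors are abundant, and they act beside the T cell receptor and CD28 in the expansion and survival of activated cells.

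Gene counts summed to 14544212 in the knockout library and 18124611 in the wild-type library. Psmd14, which encodes POH1, the deubiquitinase of the proteasome lid, had 463 counts in the knockout library and 1619 in the wild-type library, a ratio of 0.356 (0.320 to 0.395). Cd4 and Foxp3, the genes of the sorting marker and of the reporter, were abundant in both libraries, as were Cd3e and Il2ra. The summed level of 6 Treg markers was 4459 in the knockout library and 3832 in the wild-type library. These values are in CPM, which are counts divided by scaled library size. The 6 were split, with Foxp3, Il2ra, Ikzf4 and Gpr83 higher and Ctla4 and Ikzf2 lower in the knockout library beyond 1.5-fold. By the same rule, given in the next paragraph, 9.58% of all measured genes were higher and 12.3% lower.

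The receptors separated into those with more and those with fewer transcripts in the knockout library. Tnfrsf8 and Tnfrsf1b were lower, Tnfrsf25 and Tnfrsf4 were higher, and the other 5 did not pass the 1.5-fold bound used to call a gene. A gene counted as measured when either library had it at 1 CPM or above, and as called when the whole counting interval of its ratio exceeded 1.5-fold. By this rule 2 of 9 receptors were higher, against 9.58% of 13464 measured genes, and 2 of 9 were lower, against 12.3% of them. In either direction the background was 21.9%, and with so few receptors each gene moves their share by a large step. The median log2 ratio of knockout over wild type was 0.27 over the receptors and -0.01 over all measured genes. At a stricter bound of 2-fold, 1 receptor was higher, against a background of 4.34%, and 2 were lower, against 6.63%.

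Upstream sequences of Tnfrsf8, Tnfrsf1b and Tnfrsf25, with Cd27 as a receptor inside the bound, are shown because Tnfrsf1b and Tnfrsf8 are close neighbours that were both lower. Each is the 250 bases before the RefSeq start on GRCm38.p6, the build also called mm10, read 5′ to 3′ on the gene's strand and free of annotated exons. All 9 receptors matched an entry of the RefSeq promoter table. The Tnfrsf4 window is not printed, because it holds annotated exon bases and the RefSeq start did not match a GENCODE transcript of the gene. Capitals mark matches, on either strand, to the kappaB consensus, AP-1 (TGANTCA), NFAT (GGAAAA), the interferon response element (GAAA, any 2 bases, GAAA) and the GC box (GGGCGG). The windows are chr4:145315165-145315414 on the minus strand for Tnfrsf8, chr4:145246871-145247120 on the minus strand for Tnfrsf1b, chr4:152115684-152115933 on the plus strand for Tnfrsf25 and chr6:125237028-125237277 on the minus strand for Cd27.
Tnfrsf8: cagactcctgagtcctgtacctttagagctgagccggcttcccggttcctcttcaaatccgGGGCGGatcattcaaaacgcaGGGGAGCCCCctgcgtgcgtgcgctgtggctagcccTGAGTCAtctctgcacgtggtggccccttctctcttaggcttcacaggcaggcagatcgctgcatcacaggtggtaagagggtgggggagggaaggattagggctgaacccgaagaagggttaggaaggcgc
Tnfrsf1b: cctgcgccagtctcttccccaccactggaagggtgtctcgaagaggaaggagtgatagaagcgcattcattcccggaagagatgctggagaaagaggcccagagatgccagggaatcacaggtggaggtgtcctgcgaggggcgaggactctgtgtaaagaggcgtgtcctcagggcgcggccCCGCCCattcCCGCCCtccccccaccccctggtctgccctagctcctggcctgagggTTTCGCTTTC
Tnfrsf25: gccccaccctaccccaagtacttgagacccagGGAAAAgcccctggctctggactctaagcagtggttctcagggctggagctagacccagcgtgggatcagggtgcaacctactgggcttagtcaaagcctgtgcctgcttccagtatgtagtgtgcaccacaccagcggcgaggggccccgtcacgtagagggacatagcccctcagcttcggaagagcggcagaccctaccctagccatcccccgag
Cd27: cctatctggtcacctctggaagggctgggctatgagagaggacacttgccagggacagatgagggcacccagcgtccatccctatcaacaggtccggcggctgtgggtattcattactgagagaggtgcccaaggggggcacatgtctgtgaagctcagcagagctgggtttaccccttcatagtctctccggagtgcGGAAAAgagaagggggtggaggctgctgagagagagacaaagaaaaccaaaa

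In the Tnfrsf8 window a kappaB match began 168 bases before the start, an AP-1 match 132 bases before it and a GC box 189 bases before it. The Tnfrsf1b window held 2 GC boxes and an interferon response element match that began 10 bases before the start. Tnfrsf25 had 1 NFAT match, 218 bases before the start, and Cd27 had 1 as well, 52 bases before the start. The window of another RefSeq start of Tnfrsf25 held none of the motifs. That window holds 22 annotated exon bases and is not printed. None of the matches printed in capitals overlap one another. The kappaB and AP-1 matches were not particular to Tnfrsf8: a window of Tnfrsf9, which was not called, held 2 overlapping kappaB matches and 1 AP-1 match, and it is not printed because it holds annotated exon bases. Over 32851 RefSeq windows of the same length, 3.90% held the kappaB consensus, 6.75% the AP-1 letters, 20.4% the NFAT letters, 2.98% the interferon element and 32.7% the GC box. The other motifs also occurred in receptors that were not called. The Tnfrsf14 window held the interferon element, and windows of Tnfrsf9, Tnfrsf14 and Tnfrsf18 held the NFAT letters. A window of Tnfrsf9 held a GC box. A match describes the letters in the window and does not show a bound site.

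Tnfrsf4 was the most abundant receptor in both libraries per unit of gene length. Levels between genes are given as the authors' FPKM, which are scaled by gene length and library total. In the knockout library Tnfrsf4 (232 FPKM) was followed by Cd27 (67.6 FPKM), Tnfrsf25 (58.3 FPKM), Tnfrsf1b (38.4 FPKM), Tnfrsf18 (35.5 FPKM), Tnfrsf9 (20.6 FPKM), Tnfrsf14 (16.4 FPKM), Tnfrsf1a (8.001 FPKM) and Tnfrsf8 (0.629 FPKM). In the wild-type library Tnfrsf4 (148 FPKM) was followed by Tnfrsf1b (125 FPKM), Cd27 (55.9 FPKM), Tnfrsf18 (35.9 FPKM), Tnfrsf25 (27.4 FPKM), Tnfrsf9 (23.7 FPKM), Tnfrsf14 (11.1 FPKM), Tnfrsf8 (8.92 FPKM) and Tnfrsf1a (5.61 FPKM). Neighbours in these orders lay apart beyond their counting intervals, except Tnfrsf1b and Tnfrsf18 in the knockout library. Tnfrsf1b stood in place 4 in the knockout library and in place 2 in the wild-type library, while Tnfrsf25 stood in place 3 in the knockout library and in place 5 in the wild-type library.

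The summed level of the receptors differed little between the libraries while its make-up changed. The 9 genes summed to 477 FPKM in the knockout library and 442 FPKM in the wild-type library. The direction was the reverse in CPM, at 1406 in the knockout library and 1459 in the wild-type library. It was also the reverse without Tnfrsf4, at 245 FPKM in the knockout library and 294 FPKM in the wild-type library. Tnfrsf4 made up 48.6% of the FPKM sum of all 9 in the knockout library, against 33.5% in the wild-type library. For Tnfrsf1b the share was 8.04% in the knockout library, against 28.4% in the wild-type library. Tnfrsf25 held 12.2% in the knockout library and 6.20% in the wild-type library. These shares rest on the gene lengths behind the FPKM values, which were 1.03 to 2.53 times the merged exon length in GENCODE M21. With counts scaled to those exon lengths instead, 7 of 9 receptors kept their place in each library. Tnfrsf18 then lay above Tnfrsf1b in the knockout library, and Tnfrsf8 above Tnfrsf14 in the wild-type library.

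**Figure D1:**
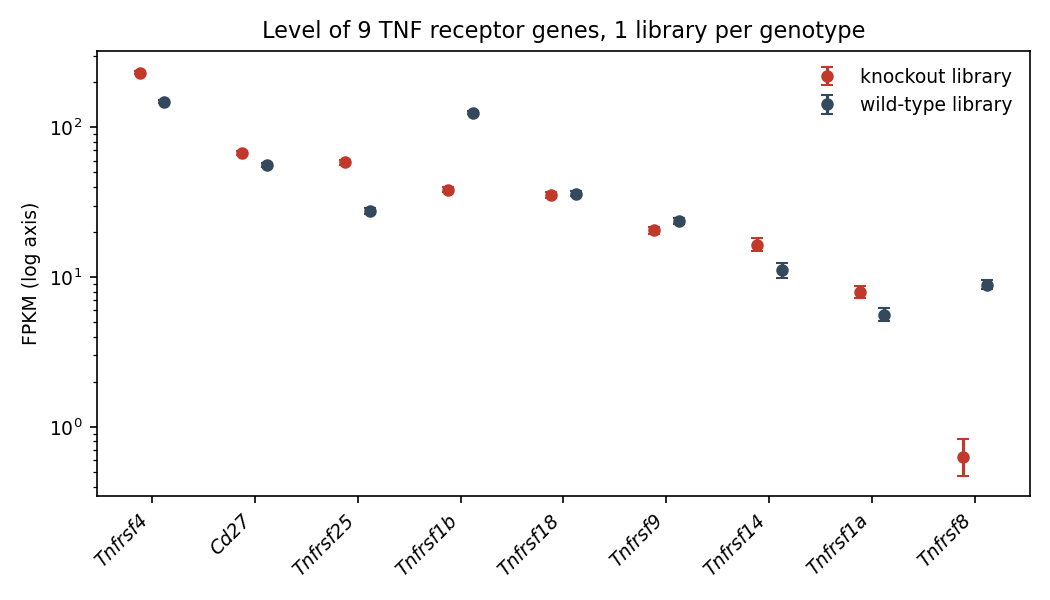
The plot gives the FPKM of each receptor gene on a log axis, in the knockout library (red) and the wild-type library (dark blue), with 95% counting intervals as bars. Tnfrsf8 is at 0.629 FPKM in the knockout library and 8.92 FPKM in the wild-type library, and Tnfrsf4 is the highest gene in both.

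The receptors that bind TNF itself differed in direction. Tnfrsf1b encodes TNFR2, a receptor without a death domain that is abundant on Treg cells and promotes their expansion. It had 2185 counts, or 150.2 CPM, in the knockout library and 8907 counts, or 492 CPM, in the wild-type library. The knockout library was 3.27-fold lower (3.12 to 3.43), which placed the gene at percentile 5.56 of the log2 ratios of all measured genes. Tnfrsf1a encodes TNFR1, the death domain receptor through which TNF drives inflammation and cell death in many tissues. It had 438 counts (30.1 CPM) in the knockout library and 383 counts (21.1 CPM) in the wild-type library. The ratio was 1.42 (1.24 to 1.64), so the interval lay above 1 but reached below the 1.5-fold bound. In the knockout library the TNFR1 gene was thus higher and the TNFR2 gene lower, each beyond counting error.

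Tnfrsf8 had the lowest ratio of the 9. It encodes CD30, a receptor of activated lymphocytes. There were 52 counts, or 3.57 CPM, in the knockout library and 919 counts, or 50.7 CPM, in the wild-type library. The knockout library was 14.2-fold lower (10.7 to 19.1), and the gene ranked 139 from the lowest log2 ratio among the 13464 measured genes. With 52 counts in the knockout library, the gene was close to silent there but clearly above the floor of 3 counts, which is 0.206 CPM in that library.

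Tnfrsf25 had the highest ratio of the 9. It encodes DR3, a death domain receptor for the cytokine TL1A whose engagement expands Treg cells in mice. There were 3122 counts (215 CPM) in the knockout library and 1831 counts (101 CPM) in the wild-type library, 2.12-fold higher in the knockout library (2.00 to 2.25). This placed it at percentile 92.1 of all measured genes. Tnfrsf4, which encodes OX40, had 6848 counts (471 CPM) in the knockout library and 5453 counts (301 CPM) in the wild-type library. Its ratio of 1.56 (1.51 to 1.62) lay just beyond the 1.5-fold bound. With a 99% interval, or with totals that leave out the mitochondrially encoded and the 50 most abundant genes, the Tnfrsf4 interval reached below 1.5-fold and the call was lost.

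Tnfrsf18, which Treg cells carry already at rest, and Tnfrsf9, which is induced on activation, were the receptors closest to equal in the libraries. Tnfrsf18, which encodes GITR, had 1989 counts (137 CPM) in the knockout library and 2509 counts (138 CPM) in the wild-type library. Its ratio of 0.987 (0.930 to 1.05) was the only one of the 9 whose interval held 1. Tnfrsf9, which encodes the receptor CD137, had 1281 counts (88.05 CPM) in the knockout library and 1838 counts (101 CPM) in the wild-type library, a ratio of 0.868 (0.808 to 0.933). Tnfrsf9 was lower in the knockout library beyond counting error but within the 1.5-fold bound.

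Cd27 and Tnfrsf14, receptors that resting T cells already express, were above their wild-type level in the knockout library. Cd27, the receptor for CD70, had 4154 counts (286 CPM) in the knockout library and 4276 counts (236 CPM) in the wild-type library, a ratio of 1.21 (1.16 to 1.26). Tnfrsf14 encodes HVEM, which binds LIGHT and the immunoglobulin-family receptors BTLA and CD160. It had 389 counts (26.7 CPM) in the knockout library and 327 counts (18.05 CPM) in the wild-type library, a ratio of 1.48 (1.28 to 1.72). Both intervals lay above 1 without passing 1.5-fold. In all, the counting intervals of 5 receptors lay above 1, as did those of 34.3% of all measured genes, and those of 3 lay below 1, as did 35.2% of all measured genes. At these depths most genes meet that bound.

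**Figure D2:**
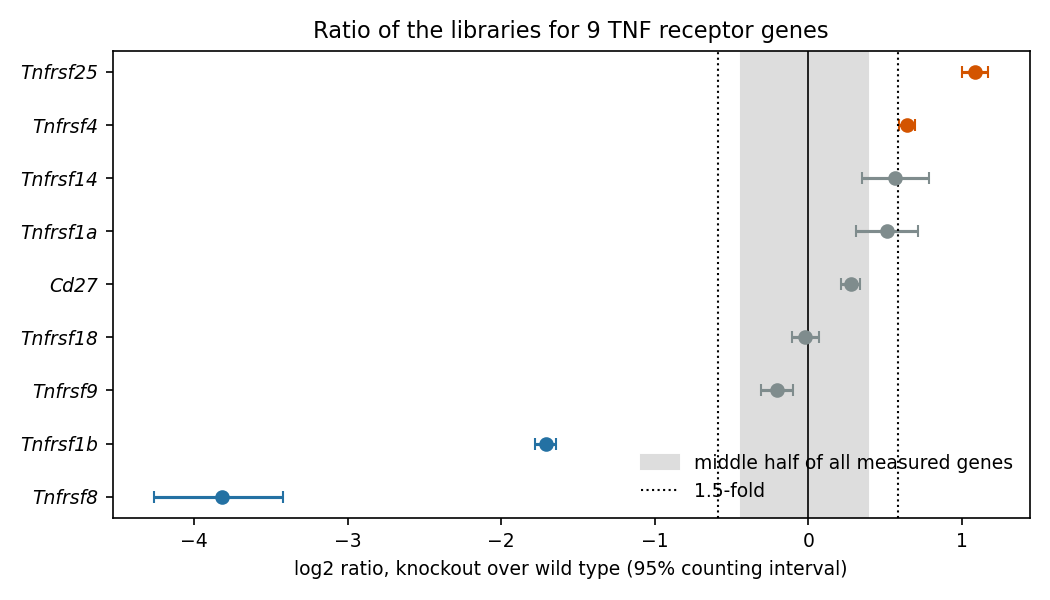
Points give the log2 ratio of knockout over wild type for each receptor with its 95% counting interval, dotted lines mark 1.5-fold and the grey band spans the middle quartiles of all measured genes (-0.44 to 0.39). Tnfrsf25 and Tnfrsf4 (orange) lie beyond the upper line, Tnfrsf1b and Tnfrsf8 (blue) beyond the lower one, and the other 5 (grey) reach inside the lines.

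Some of the receptor genes lie close together, and such neighbours did not always share a direction. On mm10, 7 of the 9 lie on chromosome 4 and 2 on chromosome 6, in the GENCODE M21 annotation, where all are protein-coding. Tnfrsf1b (chromosome 4, 145213463 to 145246870, minus strand) and Tnfrsf8 (145267137 to 145315164, minus strand) are 20.3 kb apart, and both were lower in the knockout library. The next measured genes by start position on their outer sides, Vps13d and Smarca5-ps, had log2 ratios of 0.09 and -0.46 and were not called. Tnfrsf4 (chromosome 4, 156013843 to 156016612, plus strand) and Tnfrsf18 (156026164 to 156028895, plus strand) are 9.55 kb apart. Their log2 ratios were 0.65 and -0.02. Sdf4, the next measured gene before Tnfrsf4, had a log2 ratio of 0.28. Exons of Tnfrsf18 overlap those of the opposite-strand gene Gm16008 over 27.2% of their length, and the kit did not mark strand. Gm16008 had 125 counts in the knockout library and 53 in the wild-type library, and how reads in the shared bases were assigned was not tested. Gm37090, between Tnfrsf4 and Tnfrsf18, and 9430015G10Rik, beyond Tnfrsf18, had log2 ratios of 0.59 and -0.48 and were not called.

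Tnfrsf25 (chromosome 4, 152115934 to 152120119, plus strand) lies 0.212 kb from Espn, which had 506 counts in the knockout library and 248 in the wild-type library, a log2 ratio of 1.34. Its neighbour on the other side, Plekhg5, was not called, with a log2 ratio of 0.44. Tnfrsf9 (chromosome 4, 150914562 to 150946102, plus strand) and its neighbour Park7 had log2 ratios of -0.20 and -0.23, while Camta1, whose gene body overlaps that of Tnfrsf9, had 0.11. Tnfrsf14 (chromosome 4, 154921933 to 154928563, minus strand) has Prdm16 and Pank4 as its nearest measured neighbours, with log2 ratios of -0.27 and 0.46. On chromosome 6, Cd27 (125232622 to 125237010, minus strand) and Tnfrsf1a (125349362 to 125362484, plus strand) are 112 kb apart and have Tuba3a, Ltbr, the lymphotoxin beta receptor gene, and Scnn1a between them as measured genes. The log2 ratios of Cd27 and Tnfrsf1a were 0.27 and 0.51. Scnn1a, 4.42 kb from Tnfrsf1a, had 39 counts in the knockout library and 12 in the wild-type library, a log2 ratio of 1.97, and was called higher. On its other side Tnfrsf1a has Cd9, with a log2 ratio of -0.02. Tapbpl, 0.762 kb from Cd27, was called higher as well, with a log2 ratio of 0.81. Tuba3a and Ltbr had log2 ratios of 0.96 and 0.49 and were not called. Of the 16 adjacent measured genes by start position that are not receptors of the set, 4 were higher and 0 lower. Vamp1, whose gene body overlaps that of Cd27, is not among these 16. It had a log2 ratio of 0.24 and was not called. Of all measured genes 9.58% were higher and 12.3% lower, or 21.9% in either direction. Cd27 shares 5.54% of its exon length with a microRNA gene. Over chromosome 4 as a whole, 20.8% of 763 measured genes were called in either direction.

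**Figure D3:**
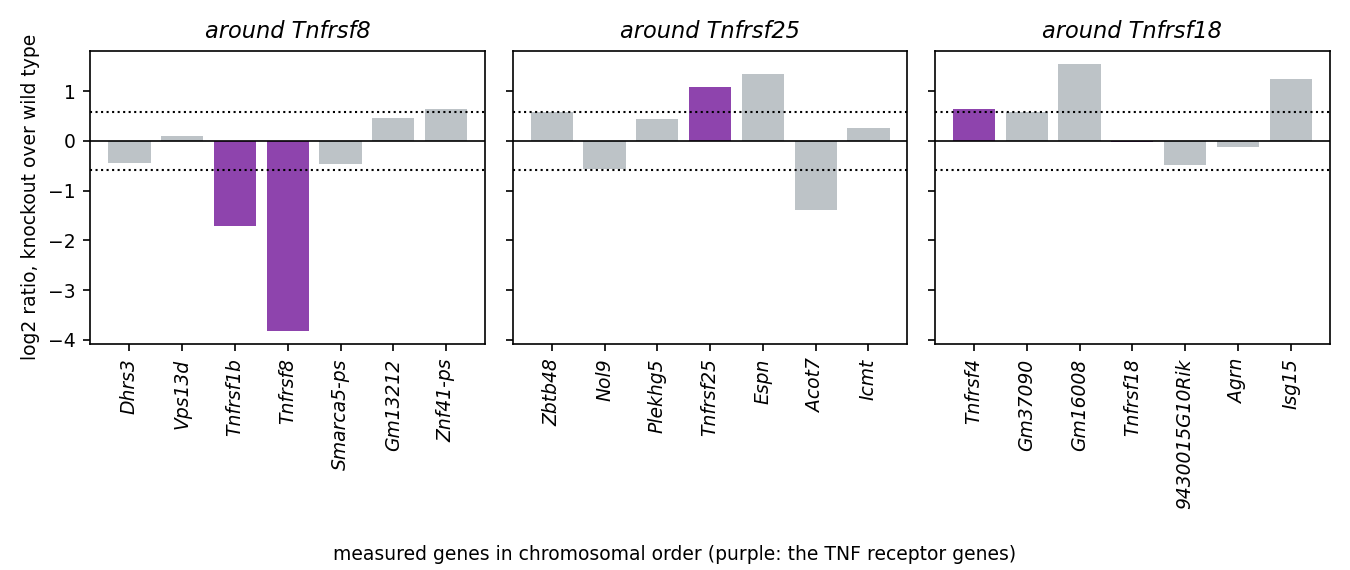
Bars give the log2 ratio of knockout over wild type for measured genes in chromosomal order around Tnfrsf8, Tnfrsf25 and Tnfrsf18, with the receptor genes in purple and dotted lines at 1.5-fold. Tnfrsf1b and Tnfrsf8 stand side by side at -1.71 and -3.82, and Tnfrsf4 at 0.65 stands near Tnfrsf18 at -0.02.

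The ligand genes of these receptors ranged from undetected to abundant in the sorted cells, and the measured ones went both ways. Of the 9 ligand genes, 6 were measured, 3 were higher and 1 was lower in the knockout library. The shares over all measured genes were 9.58% higher and 12.3% lower. Cd70 had 0 counts in both libraries, Tnfsf18 had 2 counts in the knockout library and 0 in the wild-type library, and Tnfsf15 had 0 in the knockout library and 4 in the wild-type library. Lta, which encodes lymphotoxin alpha, a ligand of both TNF receptors, was the most abundant by FPKM. It was at 77.1 FPKM in the knockout library and 31.4 FPKM in the wild-type library, 2.45-fold higher (2.25 to 2.68) by its counts. Tnfsf8, the ligand gene of CD30, was 1.77-fold higher (1.62 to 1.93), with 1223 counts in the knockout library and 861 in the wild-type library, against the lower level of its receptor gene Tnfrsf8. Tnfsf4, the ligand gene of OX40, had 35 counts in the knockout library and 4 in the wild-type library, a ratio of 10.9 (3.90 to 42.2). Tnfsf14, which encodes LIGHT, the ligand of HVEM, had 29 counts in the knockout library and 189 in the wild-type library, 5.23-fold lower in the knockout library (3.53 to 8.03). Tnf itself had 285 counts in the knockout library and 377 in the wild-type library and was not called.

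Other members of the superfamily and other partners also split. Among 19 other TNF receptor genes, 13 were measured, 1 was higher, 1 was lower and the median log2 ratio was -0.40. The background over all measured genes was 9.58% higher and 12.3% lower. The higher gene was the death receptor gene Fas, at 1484 counts in the knockout library and 570 in the wild-type library, a ratio of 3.24 (2.94 to 3.58). Tnfrsf13c, the receptor for the B cell survival factor BAFF, was the lower gene, with 38 counts in the knockout library and 152 in the wild-type library. Of 8 other TNF ligand genes, 6 were measured, with 1 higher and 2 lower. Ltb, the lymphotoxin beta gene and the most abundant of them, was 1.65-fold higher (1.59 to 1.72). Tnfsf11, which encodes RANKL, was 6.72-fold lower (5.37 to 8.49), and Cd40lg was 2.02-fold lower (1.70 to 2.41). Of the HVEM partners, Btla was 1.73-fold higher (1.66 to 1.80) and Cd160 was 2.11-fold lower (1.53 to 2.94).

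Downstream of the receptors most genes were not called, which also held for all measured genes. Of those, 9.58% were higher and 12.3% lower, or 21.9% in either direction. Among 16 TRAF and death domain adaptor genes, 1 was higher, 1 was lower and 14 were neither, with a median log2 ratio of -0.02. Traf6, an adaptor shared with Toll-like receptors and the most abundant of the list by FPKM, was 1.72-fold higher (1.64 to 1.80), and Siva1, a Cd27-binding protein gene, was 2.23-fold lower (1.66 to 3.02). Of 18 genes for ubiquitin steps below the receptors, 3 were higher and 1 was lower, with a median of 0.45. Birc3, which encodes the ubiquitin ligase cIAP2 that TRAF2 recruits, was 2.07-fold higher (1.98 to 2.18). Tax1bp1 was 1.62-fold higher (1.56 to 1.69), and Tnip3 was 3.63-fold higher (2.26 to 6.04) from 70 counts in the knockout library and 24 in the wild-type library. Tnfaip3, the gene of the NF-kB inhibitor A20 and the most abundant of that list, had 15960 counts in the knockout library and 47870 in the wild-type library.

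In the list of IKK and NF-kB genes, 3 of 15 were higher and 1 was lower (median log2 ratio 0.05). The background for this list and the next was 9.58% higher and 12.3% lower. Bcl3, Nfkbie and Relb had ratios of 3.63 (3.38 to 3.90), 1.85 (1.69 to 2.01) and 1.78 (1.67 to 1.91), and Nfkbid was 2.01-fold lower (1.89 to 2.15). Nfkbia, the gene of the inhibitor IkB alpha, was at 597 FPKM in the knockout library and 575 FPKM in the wild-type library. Of 7 genes of the JNK and p38 branch, 2 were higher and 0 were lower, Jun at 2.13-fold (2.07 to 2.19) and Mapk9, which encodes JNK2, at 1.99-fold (1.84 to 2.16). Among 4 genes of the proteases that shed such receptors from the cell surface, 0 were called, and the most abundant, Adam10, had a ratio of 0.801 (0.761 to 0.843).

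Costimulatory and inhibitory receptors outside the superfamily were more often lower than higher. Of 10 such genes, 1 was higher and 6 were lower, with a median log2 ratio of -0.92. Of all measured genes 9.58% were higher and 12.3% lower. Icos, a CD28 relative of activated and effector Treg cells, had 2004 counts in the knockout library and 15424 in the wild-type library, 6.18-fold lower (5.90 to 6.48). Tigit and Pdcd1, inhibitory receptor genes, were 17.8-fold lower (14.7 to 21.9) and 5.33-fold lower (4.39 to 6.53), and Cd2 was 1.73-fold higher (1.68 to 1.77). Ctla4, the most abundant of the list, had a ratio of 0.628 (0.613 to 0.643). By log2 ratio over the 2 libraries, the listed genes nearest to Tnfrsf25 were Jun and Birc3, at distances of 0.002 and 0.035. Those nearest to Tnfrsf8 were Tigit and Tnfsf11, at wider distances of 0.34 and 1.07. With 2 libraries such likeness is the closeness of a single ratio.

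**Figure D4:**
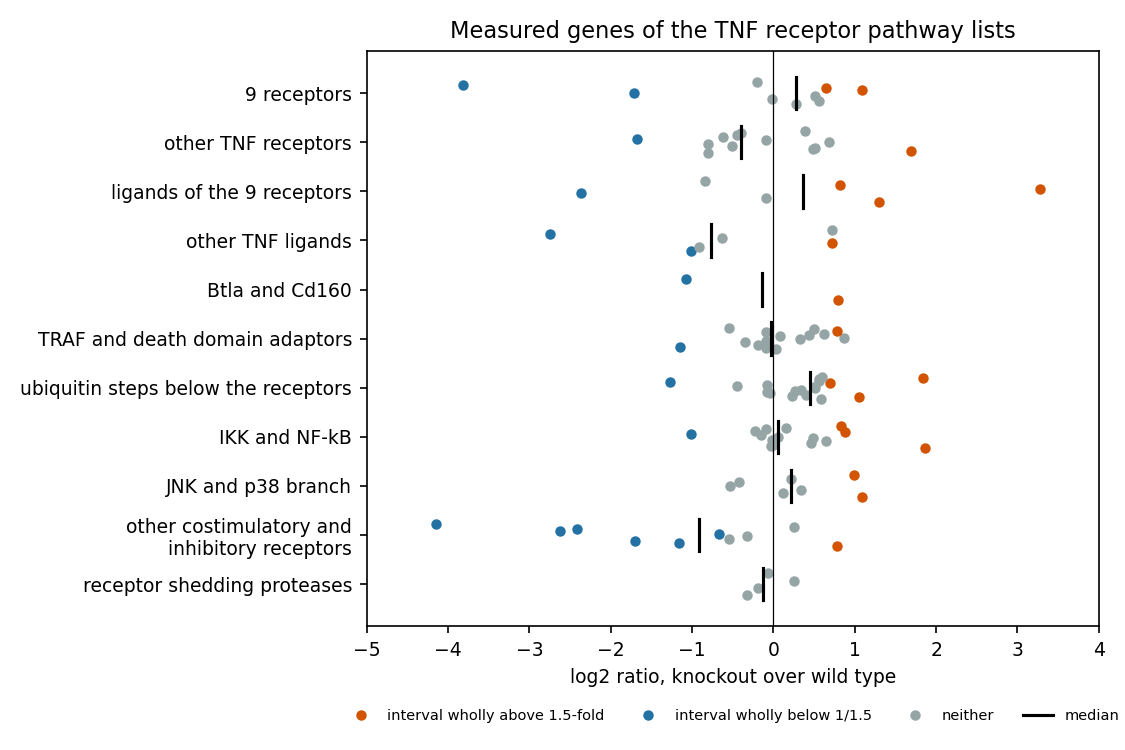
Points give the log2 ratio of knockout over wild type of each measured gene, by list, orange where the counting interval lies wholly above 1.5-fold, blue where it lies wholly below the inverse of 1.5, and grey otherwise, with black bars at the medians. The 9 receptors have a median of 0.27, their ligands 0.37 and the other costimulatory and inhibitory receptors -0.92.

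Markers of other cell types moved between the libraries as well. The background for these lists was 9.58% of all measured genes higher and 12.3% lower. In bulk samples, fewer cells of a type and less RNA per cell cannot be told apart. The 9 B cell markers had log2 ratios from -2.73 to -0.72, with 8 called lower, and summed to 41.7 CPM in the knockout library and 152 CPM in the wild-type library. None of the 9 was at 0 counts. They were lower together with Tnfrsf1b and with Tnfrsf8, which activated B cells can also express, and the part of B cells in either difference was not tested. Dendritic cell markers summed to 21.6 CPM in the knockout library and 30.8 CPM in the wild-type library. Xcr1, Clec9a and Cd209a were at 0 counts in the knockout library, and 5 of 7 measured markers were lower. Itgax, the most abundant of the list by FPKM, went the other way, with 201 counts in the knockout library and 145 in the wild-type library. Its log2 ratio was 0.79 and that of Zbtb46 was -0.02, and neither gene was called. Erythroid markers summed to 18.3 CPM in the knockout library and 68.5 CPM in the wild-type library, all 7 lower. Macrophage and monocyte markers, whose cells express Tnfrsf1a and Tnfrsf1b, summed to 236 CPM in the knockout library and 186 CPM in the wild-type library, with 1 of 9 higher and 0 lower. By log2 ratio 7 of these 9 markers were above 0 and 2 below. The 1 called was Csf1r, at 92.1 CPM in the knockout library and 52.9 CPM in the wild-type library. The part of such cells in the levels of Tnfrsf1a and Tnfrsf1b was not tested. The CD8 T cell markers Cd8a and Cd8b1 summed to 47.4 CPM in the knockout library and 18.8 CPM in the wild-type library, and the part of such cells in the higher receptor genes was not tested. Plasma cell markers summed to 41.5 CPM in the knockout library and 88.3 CPM in the wild-type library. Most of that sum was Prdm1, also a gene of effector Treg cells, at 23.2 CPM in the knockout library and 77.2 CPM in the wild-type library. Jchain went the other way, at 17.0 CPM in the knockout library and 9.66 CPM in the wild-type library, and Tnfrsf17 was at 0 counts in both. Natural killer cell markers summed to 9.35 CPM in the knockout library and 3.04 CPM in the wild-type library. Of these sums Eomes, also a T cell gene, was 8.39 CPM in the knockout library and 1.55 CPM in the wild-type library. Ncr1 was at 0 counts in the knockout library and 2 in the wild-type library, and Klre1 and Klra8 were at 0 in both. Neutrophil markers summed to 3.92 CPM in the knockout library and 13.1 CPM in the wild-type library.

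**Figure D5:**
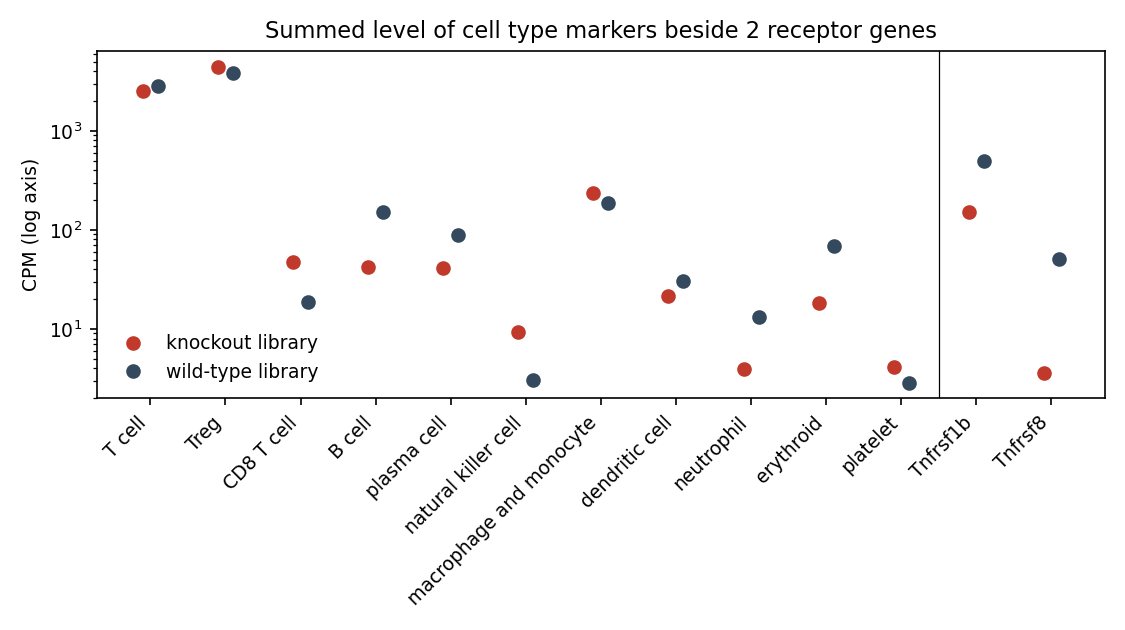
Points give the summed CPM of each marker list, left of the vertical line, and the CPM of Tnfrsf1b and Tnfrsf8, right of it, in the knockout library (red) and the wild-type library (dark blue) on a log axis. B cell markers sum to 41.7 CPM in the knockout library and 152 CPM in the wild-type library, beside 150.2 CPM and 492 CPM for Tnfrsf1b in the same libraries.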

How the data were processed

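Gene expression was measured by RNA sequencing in 1 knockout and 1 wild-type library of sorted splenic Treg cells, per the labels' protocols, with a TruSeq RNA v2 kit that keeps no strand information. TopHat, HTSeq and mm10 are named in the submitters' processing notes. The sources used here give neither their versions nor the gene annotation. Per the file headers, each deposited table gives a raw count and an FPKM value per gene name, in 34745 rows, of which 0 lacked a name. The authors' deposited FPKM equalled the count divided by library total and gene length, with one length per gene in both libraries, and served for levels between genes.

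Counts were scaled by the TMM method (R 4.3.3, edgeR 4.0.16). With 1 library per genotype there is no replicate spread and therefore no p-value. The 95% intervals of ratios are exact Clopper-Pearson intervals of the knockout share of both counts, and those of levels are exact Poisson intervals. PCR copies cannot be told from separate molecules here, so the intervals cover counting error only. For log2 ratios, 0.5 counts, weighted by library size, were added to each library. The interval rule was tested on simulated data.

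The receptors and the gene and marker lists were chosen with earlier results of these data known. Named genes were the receptors, up to 3 called genes at each end of every list by the interval bound nearest to 1, each list's most abundant gene, the nearest listed genes by log2 ratio at 5 CPM or more, the nearest measured neighbours, and Psmd14; a few other genes are named for context and were chosen after their values were seen. Locations and exon overlaps come from GENCODE M21 and upstream sequences from RefSeq (GRCm38.p6). Neighbours were the adjacent measured genes by start position, which need not be the closest in bases. Other scalings, filters, bounds and interval widths were tried, as given in the closing section. The calculations used Python 3.11.15 with scipy 1.17.1, numpy 2.4.6 and pandas 2.3.3, and figures were drawn with matplotlib 3.10.9.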

Additional observations from a re-analysis of the deposited data

How the results depend on the processing

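No paired analysis was possible because there is 1 library per genotype, and for the same reason no library could be left out. Over the scalings tried (plain totals, DESeq2 1.42.0 size factors, upper-quartile factors and totals without mitochondrially encoded and the 50 most abundant genes), and with 5 added counts or the authors' FPKM, no log2 ratio of a receptor left its counting interval, and only Tnfrsf18 changed sign (-0.04 to 0.02). The median of the receptors ran from 0.25 to 0.31. Receptors called lower numbered 2 under every scaling, filter and interval width tried and at the 2-fold bound, and 3 where the interval need exclude only a ratio of 1. Receptors called higher numbered 1 with the trimmed totals, 1 at 2-fold, 1 with a 99% interval and 5 where the interval need exclude only 1. Over all measured genes, 2-fold gave 585 higher and 892 lower, and excluding 1 gave 4619 and 4746, against 1290 and 1659 as reported. Over the 97 measured genes of the pathway lists outside the receptors, 16 were higher and 14 lower as reported. For them 2-fold gave 6 higher and 8 lower, and excluding 1 gave 42 and 33. The order of levels was compared with GENCODE lengths after the data were seen. Depth limits Tnfrsf8, with 52 counts in the knockout library, more than the other receptors.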
